A study of Homo sapiens with 6 samples.

Results

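The immunoproteasome genes PSMB8, PSMB9, PSMB10, PSME1 and PSME2 and their constitutive counterparts PSMB5, PSMB6, PSMB7 and PSME3 were examined in CFPAC1, an established cell line of human pancreatic ductal adenocarcinoma. The 9 genes were chosen by name, with earlier results of these data known, and all 9 were found among the 19402 genes of the count table. Poly(A)-selected RNA had been sequenced from 6 libraries in 2 groups of 3. Each WT library was a pool of clonal lines derived by dilution from CFPAC1 cells infected with the lentiCRISPRv2 plasmid, which carries Cas9, with no guide named. Each IRF1-KO library was a pool of clones derived in the same way from cells whose plasmid carried wild-type Cas9 and a guide RNA against IRF1. All pools were grown in the same IMDM medium with serum, and the labels of these 6 samples name no interferon treatment. How many clones made up a pool is not given in the sources used here, and neither is whether cultures were kept apart, so p-values cover only the spread between these pools, which may be technical.

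The proteasome degrades ubiquitin-tagged proteins in a barrel whose inner rings carry the catalytic subunits PSMB5, PSMB6 and PSMB7. In cells exposed to interferon, newly made barrels take up PSMB8 in place of PSMB5, PSMB9 in place of PSMB6 and PSMB10 in place of PSMB7, and the resulting immunoproteasome cuts proteins into peptides well suited to MHC class I. PSME1 and PSME2 form a ring-shaped activator that caps the barrel in the cytoplasm and is also induced by interferon, whereas PSME3 forms a related activator found in the nucleus. IRF1 is a transcription factor that binds repeats of the letters GAAA in promoters of interferon-induced genes.

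The promoter sequences show where such repeats stand in these genes. Promoter windows of 250 bases before to 50 bases after an annotated start site were available in the RefSeq table (GRCh38.p14) for 7 of the 9 genes, which were the 5 induced genes, PSMB5 and PSME3. The search took the IRF element as GAAANNGAAA on both strands (TTTCNNTTTC in reverse). It was present in a window of 4 of the 5 induced genes and in no window of PSMB5 or PSME3. Of all 35116 windows, 3.57% held it. These windows belong to 27305 genes, and for this and the motifs below the share per gene was not computed. The stretches below run from 60 bases before to 20 bases after the start site, 5′ to 3′ on the strand of the gene, with the letters that match the IRF element in capitals. They are shown because the matched letters were the same in all 4 genes, TTTCGCTTTC on one strand and GAAAGCGAAA on the other, and because each match lay within 30 bases of the start site.
PSMB8 (chr6:32844028-32844107, minus strand): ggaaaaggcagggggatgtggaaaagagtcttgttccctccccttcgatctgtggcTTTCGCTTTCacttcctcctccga
PSMB10 (chr16:67936831-67936910, minus strand): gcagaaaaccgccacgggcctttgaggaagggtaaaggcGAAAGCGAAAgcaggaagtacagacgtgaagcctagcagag
PSME1 (chr14:24136134-24136213, plus strand): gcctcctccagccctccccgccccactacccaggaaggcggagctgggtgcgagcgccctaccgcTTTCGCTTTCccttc
PSME2 (chr14:24146591-24146670, minus strand): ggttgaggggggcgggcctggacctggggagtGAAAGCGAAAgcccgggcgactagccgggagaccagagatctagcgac
The same stretches of the constitutive genes held no match and are given for comparison. PSMB5 has 2 annotated starts, and its stretch is that of the downstream start at position 23034900. The window of its other start, at 23035220, held no match either.
PSMB5 (chr14:23034881-23034960, minus strand): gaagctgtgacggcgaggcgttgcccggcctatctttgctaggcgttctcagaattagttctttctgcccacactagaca
PSME3 (chr17:42833337-42833416, plus strand): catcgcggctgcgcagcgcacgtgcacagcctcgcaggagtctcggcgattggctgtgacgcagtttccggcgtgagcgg

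Counted from the start site as 1, with the base before it as -1, the match ran from -4 to 6 in PSMB8, from -21 to -12 in PSMB10, from 6 to 15 in PSME1 and from -28 to -19 in PSME2. PSMB8 has 2 annotated starts, and the match belonged to the downstream start at position 32844047. The PSMB9 window, around its RefSeq start at position 32854192, held no match. The counted exons of PSMB9 begin further upstream, at 32844136 beside PSMB8. No PSMB9 window was centred there, but the position lies inside the window of the downstream PSMB8 start (32843998 to 32844297). The PSMB8 stretch shown above, with its match, ends at 32844107, upstream of that position on the strand of PSMB9. Whether PSMB9 transcripts start there was not tested. By its RefSeq start, PSMB9 lies head to head with TAP1, which encodes a chain of the transporter that moves peptides into the endoplasmic reticulum. Their start sites are 488 bases apart on opposite strands, and the TAP1 window, which reaches into the interval between them, held 2 overlapping matches that end 354 bases upstream of the PSMB9 start. That stretch is shown on the strand of TAP1, because it is the match nearest to the RefSeq start of PSMB9 in the windows searched.
TAP1 (chr6:32853803-32853858, minus strand): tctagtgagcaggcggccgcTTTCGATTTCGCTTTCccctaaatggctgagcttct
The GAS element, TTCNNNGAA, which reads the same on both strands, was found in a window of PSMB8, PSMB5 and PSME3 and in 7.66% of all windows. The antioxidant response element, searched as TGACNNNGC on both strands, was found in the windows of PSMB9, PSME1 and PSME2 and in 13.3% of all windows. The counted exons of PSME3 also begin upstream of its RefSeq start, at 42824385 against 42833397. Those of PSME2, on the minus strand, reach 24147570, upstream of its RefSeq start at 24146610. The windows of these genes do not reach those positions. A match is a run of letters and does not show that a factor is bound.

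**Figure D1:**
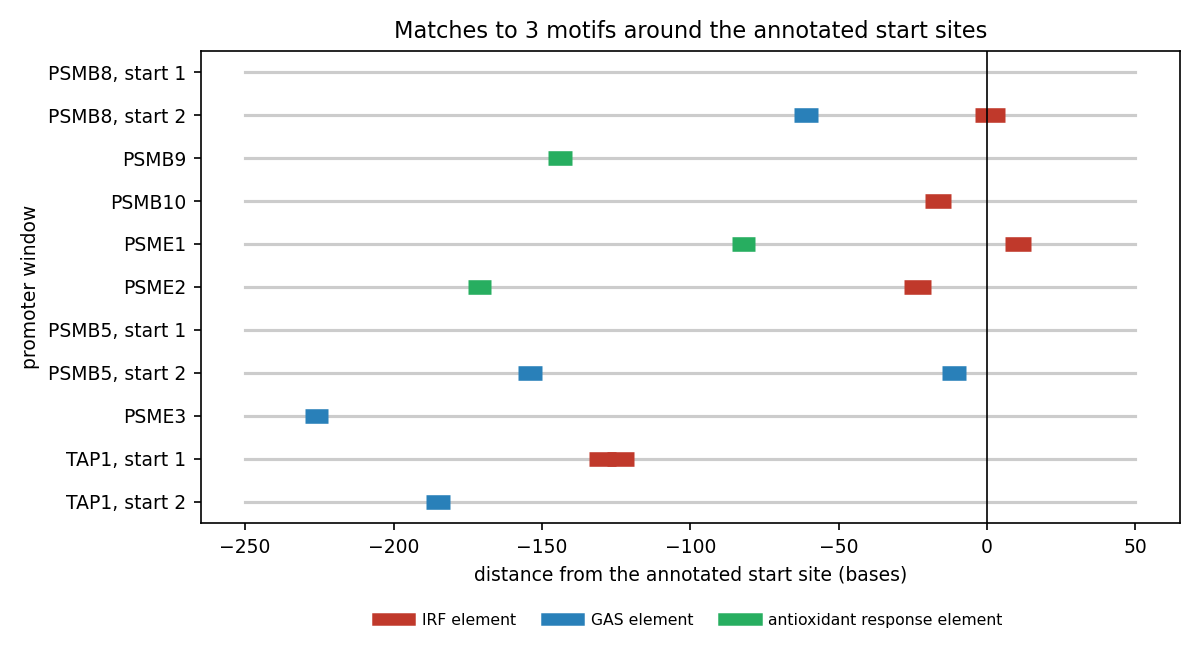
Matches to 3 motifs in each promoter window, drawn by their distance in bases from the annotated start site (vertical line); each grey bar is 1 window and a gene with 2 annotated starts has 2. Matches to the IRF element lie next to the start site in PSMB8 (start 2), PSMB10, PSME1 and PSME2, and from -134 to -119 in TAP1 (start 1), and no bar of PSMB5 or PSME3 holds one.

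Total counts ranged from 16413682 to 28258075 per library, and 13388 genes were counted deeply enough to be tested, all 9 proteasome genes among them. The transcript of the targeted gene itself was no lower where the label says IRF1-KO. Its values (gene ENSG00000125347.14) were 87.3, 91.3 and 82.6 CPM across the WT pools and 117, 123 and 132 CPM across the IRF1-KO pools, where CPM are counts scaled by TMM to the size of the library. Values of single libraries are given in the order of replicates 1 to 3 of each group. A small deletion need not change counts summed over all exons, so this does not check the knockout, and each direction below is that of the libraries labelled IRF1-KO. Of 9 ductal or epithelial marker genes, 8 were above 1 CPM in every library and CFTR was below 1 CPM in all. The defining leukocyte markers PTPRC and CD3E stayed below 1 CPM throughout. The summed leukocyte list was 28.02 to 76.1 CPM over the WT pools and 15.4 to 26.6 CPM over the others, nearly all of it LYZ, and its part in the results below was not tested. The summed fibroblast list was 32.3 to 49.7 CPM over the WT pools and 34.7 to 75.5 CPM over the others, most of it COL1A1, with DCN below 1 CPM in every library, and its part was not tested either. The summed epithelial list was lowest in WT replicate 3, at 4438 CPM against 7580 CPM at most in WT and 5047 to 6957 CPM in IRF1-KO. RNA of a pool does not tell fewer expressing cells from less RNA per cell.

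All 5 induced genes had lower values in each library labelled IRF1-KO than in any WT library, and the 4 constitutive genes overlapped between the groups. PSMB9, PSME1 and PSME2 fell past the threshold of the test over all genes. PSMB8 and PSMB10 had log2 fold changes of similar size to PSME1 and PSME2 without passing it. Thus 3 of 9 genes were called lower, beside 0.112% of all 13388 tested genes (edgeR quasi-likelihood, two-sided, Benjamini-Hochberg adjusted p under 0.05), and none was called higher, beside 0.0149%. At an unadjusted p under 0.05, 5 were lower, beside 3.75% of all tested genes, and none was higher. DESeq2 called the same 5 lower, beside 0.964%, with adjusted p of 8.83e-06 for PSMB8 and 7.82e-06 for PSMB10, and none higher. Lower values without overlap were seen in 6.75% of all tested genes. These shares only describe the 9 genes, which were chosen with earlier results of these data known.

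PSMB9 showed the largest difference of the 9 genes. It encodes the catalytic subunit that replaces PSMB6 (ENSG00000240065.8; GRCh38 chromosome 6, 32844136 to 32859851, plus strand). PSMB9 had counts of 816, 860 and 789 in the WT pools, or 44.7, 46.8 and 37.9 CPM. The pools labelled IRF1-KO had 73, 230 and 225 counts, or 4.45, 8.03 and 8.43 CPM. The highest IRF1-KO library was thus far below the lowest WT library, and IRF1-KO replicate 1 was the lowest of all. PSMB9 averaged 43.1 ± 4.62 CPM over the WT pools and 6.97 ± 2.19 CPM over the IRF1-KO pools (SD, n = 3 each). Its log2 fold change was −2.61 ± 0.24 (SE), a 6.13-fold fall (edgeR quasi-likelihood, adjusted p = 0.0108). Without WT replicate 2 it was −2.55 with an adjusted p of 0.0753, and without IRF1-KO replicate 3 it was −2.77 with an adjusted p of 0.0659 (edgeR quasi-likelihood).

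PSMB8 lies beside PSMB9 in the MHC region and encodes the subunit that replaces PSMB5 (ENSG00000204264.10; GRCh38 chromosome 6, 32840717 to 32844703, minus strand). PSMB8 had 129, 121 and 90.0 CPM in the WT pools, against 36.0, 57.4 and 51.0 CPM in the pools labelled IRF1-KO. WT replicate 3 was the lowest of its group and still above the highest IRF1-KO library. The log2 fold change was −1.23 ± 0.21 (SE), at an adjusted p of 0.104 (edgeR quasi-likelihood). Without WT replicate 3 it was −1.35 and past the threshold (edgeR quasi-likelihood, adjusted p = 0.0441). PSMB8 and PSMB9 share 139 exon bases on opposite strands, 3.97% of the exon bases of PSMB8 and 4.16% of those of PSMB9, and reads there cannot be told apart if the counting ignored strand.

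PSMB10 encodes the subunit that replaces PSMB7 (ENSG00000205220.12; GRCh38 chromosome 16, 67934506 to 67936864, minus strand). PSMB10 had 18.99, 24.9 and 21.7 CPM across the WT pools and 10.9, 10.9 and 10.3 CPM across the IRF1-KO pools. The 3 IRF1-KO libraries lay close together, at 10.7 ± 0.352 CPM (SD, n = 3), and the WT libraries spread more, at 21.9 ± 2.97 CPM (SD, n = 3). The log2 fold change was −1.03 ± 0.15 (SE), at an adjusted p of 0.0663 (edgeR quasi-likelihood). With a correction for GC content it was −1.10 and past the threshold (edgeR quasi-likelihood, adjusted p = 0.0469).

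PSME1 and PSME2, the chains of the induced activator, differed by nearly the same amount. PSME1 (ENSG00000092010.15; GRCh38 chromosome 14, 24136163 to 24138967, plus strand) had 226, 213 and 226 CPM in the WT pools, against 101, 105 and 113 CPM in the pools labelled IRF1-KO. PSME2 (ENSG00000100911.16; GRCh38 chromosome 14, 24143362 to 24147570, minus strand) measured 236, 215 and 234 CPM across the WT pools and 114, 103 and 112 CPM across the IRF1-KO pools. In both genes the WT libraries stood 2.08-fold above the IRF1-KO libraries on average, with little spread inside a group. The log2 fold changes were −1.06 ± 0.10 (SE) for both, with adjusted p of 0.0108 for PSME1 and 0.0118 for PSME2 (edgeR quasi-likelihood).

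Both activator genes missed the threshold when WT replicate 2 or any 1 of the pools labelled IRF1-KO was left out. In these fits the log2 fold changes of PSME1 were −1.0 to −1.10 with adjusted p of 0.0586 to 0.125, and those of PSME2 were −1.01 to −1.10 with adjusted p of 0.0586 to 0.118 (edgeR quasi-likelihood). With the correction for GC content and the replicate number as a block together, the adjusted p was 0.0553 for PSMB9, 0.0576 for PSME1 and 0.0557 for PSME2 (edgeR quasi-likelihood). PSME2 shares 216 exon bases with RNF31 on the other strand, 6.03% of its own. RNF31, a subunit of a ubiquitin ligase, had a log2 fold change of −0.25 ± 0.17 (SE; edgeR quasi-likelihood, adjusted p = 0.754). PSME1 shares 9 exon bases with EMC9, whose log2 fold change was 0.13 ± 0.16 (SE; edgeR quasi-likelihood, adjusted p = 0.881) and −0.06 with the correction for GC content. GENCODE 29 names 2 pseudogenes of PSME2 and 1 of PSMB7, and whether reads were shared with them was not tested.

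**Figure D2:**
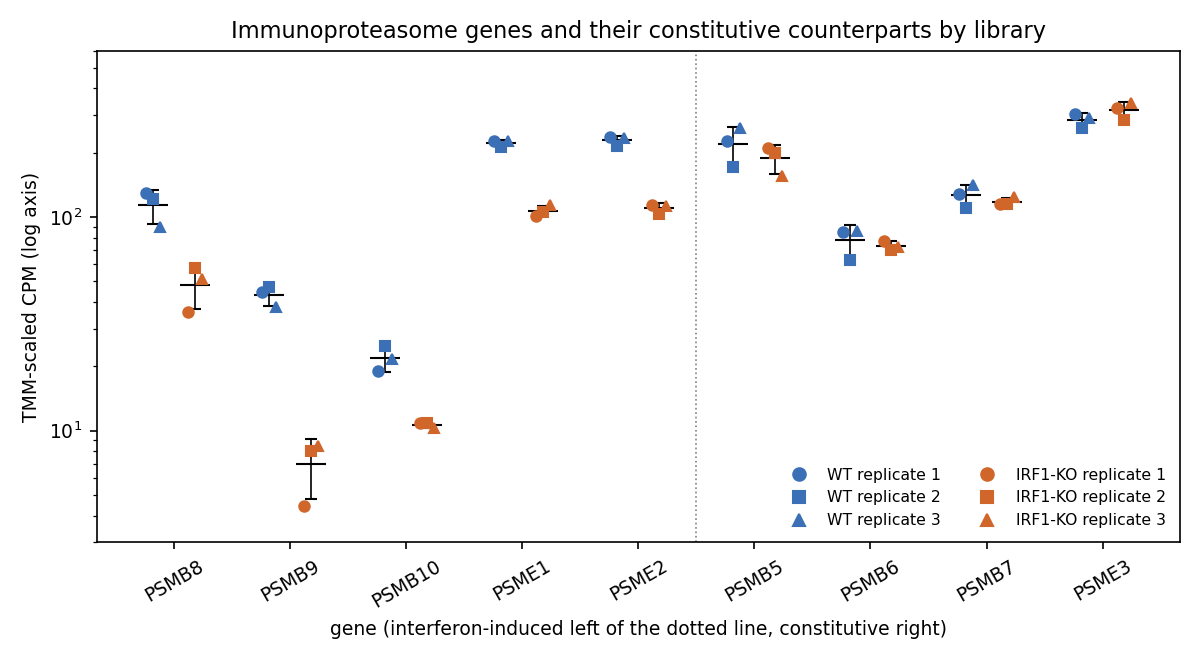
TMM-scaled CPM on a log axis for each of the 9 genes in each library; markers are single libraries and black bars are the mean ± SD of a group (n = 3). The WT and IRF1-KO markers of PSMB8, PSMB9, PSMB10, PSME1 and PSME2 do not overlap, and those of PSMB5, PSMB6, PSMB7 and PSME3 do.

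None of the constitutive genes passed the test, and the log2 fold changes were small beside those of the induced genes. PSMB5, the subunit with chymotrypsin-like activity (ENSG00000100804.18; GRCh38 chromosome 14, 23016543 to 23035230, minus strand), measured 226, 171 and 260 CPM in the WT pools, against 210, 200.1 and 155 CPM in the pools labelled IRF1-KO. Its WT libraries spread over a range that held 2 of the 3 IRF1-KO libraries, and the log2 fold change was −0.22 ± 0.18 (SE; edgeR quasi-likelihood, adjusted p = 0.806). PSMB6, the subunit with caspase-like activity (ENSG00000142507.10; GRCh38 chromosome 17, 4796144 to 4798502, plus strand), had 85.3, 63.2 and 86.4 CPM across the WT pools and 77.5, 69.8 and 72.2 CPM across the IRF1-KO pools. All IRF1-KO libraries lay inside the WT range, with a log2 fold change of −0.10 ± 0.14 (SE; edgeR quasi-likelihood, adjusted p = 0.897).

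PSMB7, the subunit with trypsin-like activity (ENSG00000136930.13; GRCh38 chromosome 9, 124353465 to 124415444, minus strand), measured 129, 110.1 and 140.4 CPM in the WT pools, against 115, 115 and 124 CPM in the pools labelled IRF1-KO. Here too every IRF1-KO library lay inside the WT range, at a log2 fold change of −0.10 ± 0.12 (SE; edgeR quasi-likelihood, adjusted p = 0.872). PSME3, the nuclear activator (ENSG00000131467.10; GRCh38 chromosome 17, 42824385 to 42843758, plus strand), had 304, 262 and 292 CPM across the WT pools and 324, 284 and 342 CPM across the IRF1-KO pools. It was the 1 gene of the 9 with a positive log2 fold change, 0.15 ± 0.12 (SE; edgeR quasi-likelihood, adjusted p = 0.789), and IRF1-KO replicate 2 lay inside the WT range. PSME3 shares 300 exon bases, 5.82% of its own, with BECN1 on the other strand, whose log2 fold change was 0.06 ± 0.11 (SE; edgeR quasi-likelihood, adjusted p = 0.926) and −0.03 without IRF1-KO replicate 3. The signs of PSMB6 and PSMB7 turned without WT replicate 3, to 0.000681 and 0.00527. A p that misses the threshold does not show that the constitutive genes had the same level in both groups.

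Other genes of the proteasome, taken from a list of 43, varied little. Of these, 41 were tested and 2, the thymus-type subunit gene PSMB11 and the testis-type subunit gene PSMA8, were at or near 0 in every library. Their median log2 fold change was −0.04, beside −0.02 over all tested genes, −1.06 over the 5 induced genes and −0.10 over the 4 constitutive genes. None passed the threshold in either direction (edgeR quasi-likelihood). At an unadjusted p under 0.05, 1 was lower and 1 higher, beside 3.75% and 5.39% of all tested genes. DESeq2 called 0 lower and 1 higher, beside 0.964% and 1.52%. Without overlap between groups, 1 was lower and 3 were higher, beside 6.75% and 8.03%.

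In each class the gene with the smallest p was as follows. PSMA3, of the 7 outer-ring subunits, had a log2 fold change of −0.41 ± 0.12 (SE), and the class median was −0.11. PSMB4, of the 4 remaining inner-ring subunits, stood at −0.20 ± 0.12, with a class median of −0.16. PSMC6, of the 6 ATPases that unfold substrates, stood at −0.18 ± 0.13, with a class median of −0.10. ADRM1, a ubiquitin receptor among 13 other subunits of the regulatory cap, had the highest value, 0.76 ± 0.18, while its class median was −0.01. It had 86.4, 76.7 and 122 CPM in the WT pools, against 151, 173 and 157 CPM in the pools labelled IRF1-KO, and its adjusted p was 0.191 (edgeR quasi-likelihood). The ADRM1 transcript is 64.2% GC, and with the correction for GC content its value was 0.43. Without WT replicate 3 ADRM1 was past the threshold, at 1.00 (edgeR quasi-likelihood, adjusted p = 0.0409). PSMF1, a proteasome inhibitor, stood at 0.18 ± 0.16, and the assembly factor PSMD9 at 0.20 ± 0.10.

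**Figure D3:**
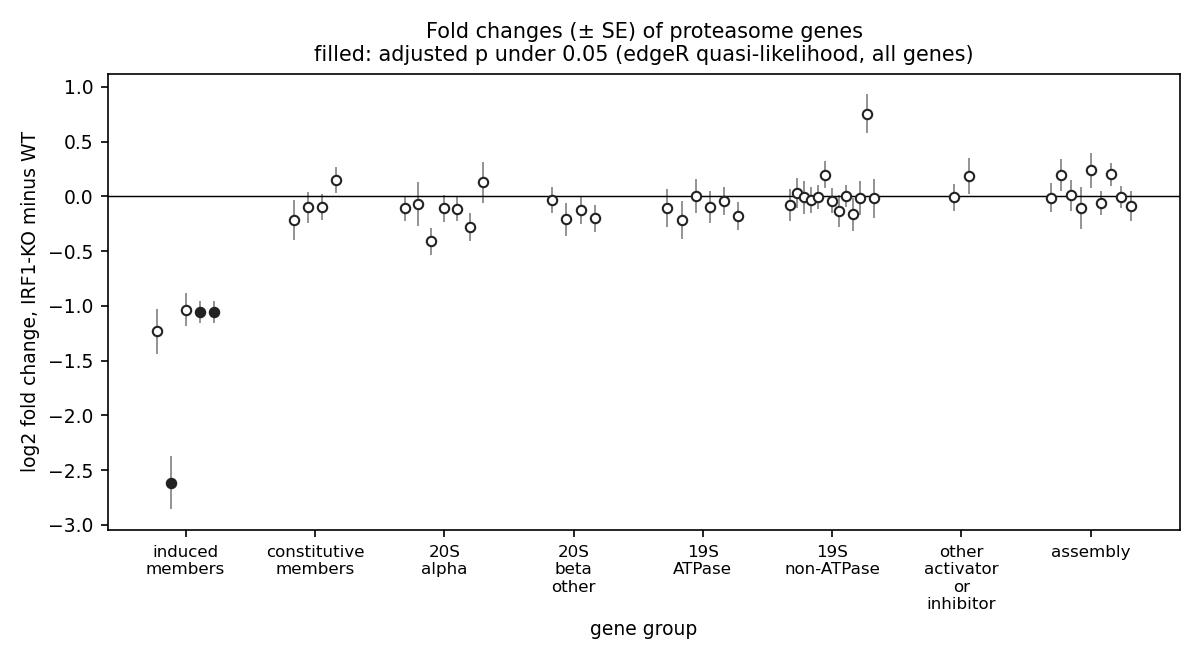
Log2 fold change (IRF1-KO minus WT) with its SE for each tested proteasome gene, by gene group; filled circles passed an adjusted p of 0.05 over all genes. The 5 induced genes lie between −2.61 and −1.03, and the other 45 proteasome genes lie between −0.41 and 0.76 with no filled circle.

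Regulators of these genes were taken from a list of 5, of which IRF8 was too low to be tested. IRF2, a relative of IRF1 that binds the same element, had a log2 fold change of −0.45 ± 0.17 (SE; edgeR quasi-likelihood, adjusted p = 0.469). At an unadjusted p under 0.05 (edgeR quasi-likelihood) IRF2 was lower, as were 3.75% of all tested genes. NFE2L1, the factor that raises constitutive proteasome genes when proteasomes are blocked, was at −0.01 ± 0.12 (SE; edgeR quasi-likelihood, adjusted p = 0.992). IRF1 itself was higher at 0.51 ± 0.10 (SE) without passing the threshold (edgeR quasi-likelihood, adjusted p = 0.135). DESeq2 called IRF1 higher, at an adjusted p of 0.00105.

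Ratios within a library do not depend on how libraries are scaled, so each induced gene was set against its counterpart by counts per kb of exon. In all 6 ratios each IRF1-KO library was below each WT library. The exact permutation test, two-sided, gave p = 0.1 for each, the smallest that 3 against 3 libraries allow, and 0.1 after Benjamini-Hochberg adjustment over the 6 ratios. This test cannot go below that value with 3 against 3 libraries, whatever the size of the difference.

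The ratio of PSMB9 to PSMB6 was 0.227, 0.321 and 0.190 in the WT pools, against 0.0249, 0.0499 and 0.0506 in the pools labelled IRF1-KO. The lowest WT library was thus well above the highest IRF1-KO library. As a share of the pair, PSMB9 made up 19.6% ± 4.27 in WT and 3.998% ± 1.36 in IRF1-KO (SD, n = 3 each). The mean log2 ratio differed by −2.60, a 6.05-fold difference.

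The ratio of PSMB8 to PSMB5 was 0.289, 0.356 and 0.175 across the WT pools and 0.0865, 0.144 and 0.166 across the IRF1-KO pools. WT replicate 3 and IRF1-KO replicate 3 almost touched. The log2 ratio differed by −1.04, with shares of PSMB8 of 21.2% ± 5.79 in WT and 11.6% ± 3.25 in IRF1-KO (SD, n = 3 each). Without IRF1-KO replicate 1 the difference was −0.76, and without WT replicate 3 it was −1.33.

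The ratio of PSMB10 to PSMB7 was 0.162, 0.249 and 0.170 in the WT pools, against 0.103, 0.104 and 0.0914 in the pools labelled IRF1-KO. WT replicates 1 and 3 lay close together, and WT replicate 2 was above them, as it was for the other catalytic pairs. The difference was −0.93 on the log2 scale. Summed over the catalytic subunits, the induced genes made up 19.4% ± 4.49 of the 6 transcripts per kb in WT and 9.15% ± 1.72 in IRF1-KO (SD, n = 3 each), a difference of −1.25 on the log2 scale.

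In WT the activator ratios spread less between libraries than the catalytic ones. PSME1 to PSME3 was 2.16, 2.36 and 2.25 across the WT pools and 0.908, 1.07 and 0.960 across the IRF1-KO pools. PSME2 to PSME3 was 1.12, 1.18 and 1.15 in the WT pools, against 0.506, 0.521 and 0.472 in the pools labelled IRF1-KO. Both differed by −1.21 on the log2 scale. Per kb of merged exon, PSME1 thus went from above PSME3 in each WT library to about its level in the IRF1-KO libraries. On the same scale PSME2 went from slightly above PSME3 to below it. These positions against PSME3 depend on the exon lengths used. In CPM, not divided by length, PSME1 (222 on average) and PSME2 (228) were already below PSME3 (286) in WT.

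**Figure D4:**
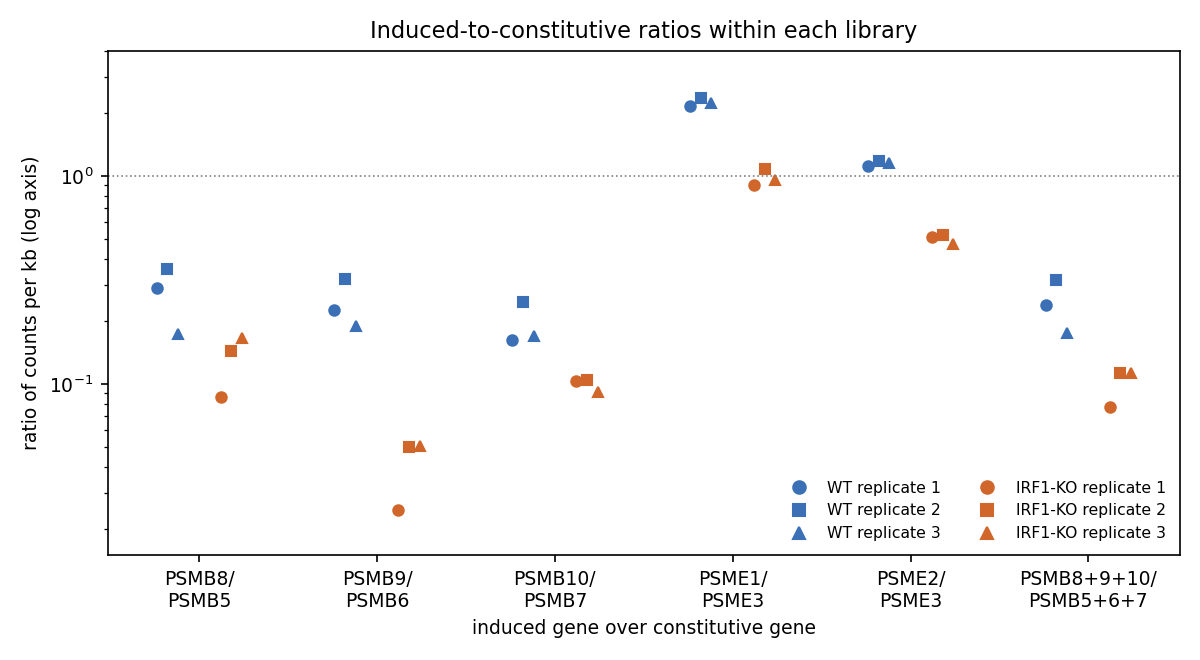
Ratio of counts per kb of each induced gene to its constitutive counterpart, and of the 3 summed catalytic pairs, on a log axis; each marker is 1 library and the dotted line is a ratio of 1. Every IRF1-KO marker lies below every WT marker, and the gap between the nearest markers of the groups is widest for PSMB9/PSMB6 and narrowest for PSMB8/PSMB5.

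Levels were also ordered per length, as TPM (transcripts scaled for exon length and library size), computed from the counts and the exon lengths in the table. In WT the order was PSME1, PSMB5, PSMB7, PSME2, PSME3, PSMB6, PSMB8, PSMB10 and PSMB9, from 473 ± 9.08 TPM for PSME1 to 48.9 ± 5.68 TPM for PSMB9 (SD, n = 3 each). The library ranges overlapped between PSME1 and PSMB5, PSMB7 and PSME2, PSME3 and PSMB6, and PSMB10 and PSMB9. Within each WT library PSMB7 was above PSME2, while the order inside the other pairs changed from library to library. In IRF1-KO the order was PSMB5, PSMB7, PSME3, PSME1, PSMB6, PSME2, PSMB8, PSMB10 and PSMB9, from 411 ± 63.4 TPM for PSMB5 to 8.03 ± 2.51 TPM for PSMB9 (SD, n = 3 each). There the ranges overlapped between PSMB7 and PSME3 and between PSME3 and PSME1. PSMB8, PSMB10 and PSMB9 were the lowest of the 9 in both groups. The exon length used is that of all annotated exons merged, which can exceed the transcript made, and this moves levels and ratios. For a ratio of a single gene to another, length cancels from the fold difference between groups. It does not cancel for the summed catalytic subunits or for the shares in percent, whose differences between groups depend on the lengths used.

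Genes most like each induced gene were found by the root-mean-square difference of log2 CPM, centred on the mean of each gene, over the 6 libraries. PSME1 and PSME2 were the nearest to each other among all tested genes, at 0.0661. ERAP1, an aminopeptidase that trims peptides, was among the 3 nearest of both, at 0.117 for PSME1 and 0.132 for PSME2, together with TAPBPL for PSME1 (0.116) and TCAF2 for PSME2 (0.140). The 3 nearest to PSMB9 were UBA7, the activating enzyme of ISG15 (0.288), GBP4, an interferon-induced GTPase (0.344), and APOL1 (0.433). PSMB8 was nearest to HLA-DOB (0.164), which lies in the same MHC region, then to DTX3L (0.191) and PARP14 (0.192). PSMB10 was nearest to PNMA2 (0.103), MCTP2 (0.113) and B2M, the light chain of MHC class I (0.117). For each of these genes the groups did not overlap, and the IRF1-KO libraries were the lower ones. The choice by likeness over the same 6 libraries favours that pattern, so it is no separate result.

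GC content was higher in the induced than in the constitutive genes, with medians of 55.3% and 50.9%. It was 53.2% to 60.1% in the longest coding transcripts of the induced genes and 49.1% to 54.5% in those of the constitutive genes, of which PSMB6 alone overlapped the induced range, against a median of 48.5% over tested genes. Libraries differed in their counts of GC-rich genes, those over 65% GC deviating from their means by a median of −0.59 to −0.10 log2 CPM in WT and 0.10 to 0.46 in IRF1-KO. With the correction for GC content the median log2 fold change was −1.10 over the induced genes and −0.03 over the constitutive genes, and PSMB9 (−2.54), PSME1 (−0.98), PSME2 (−1.03) and PSMB10 (−1.10) were past the threshold.

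**Figure D5:**
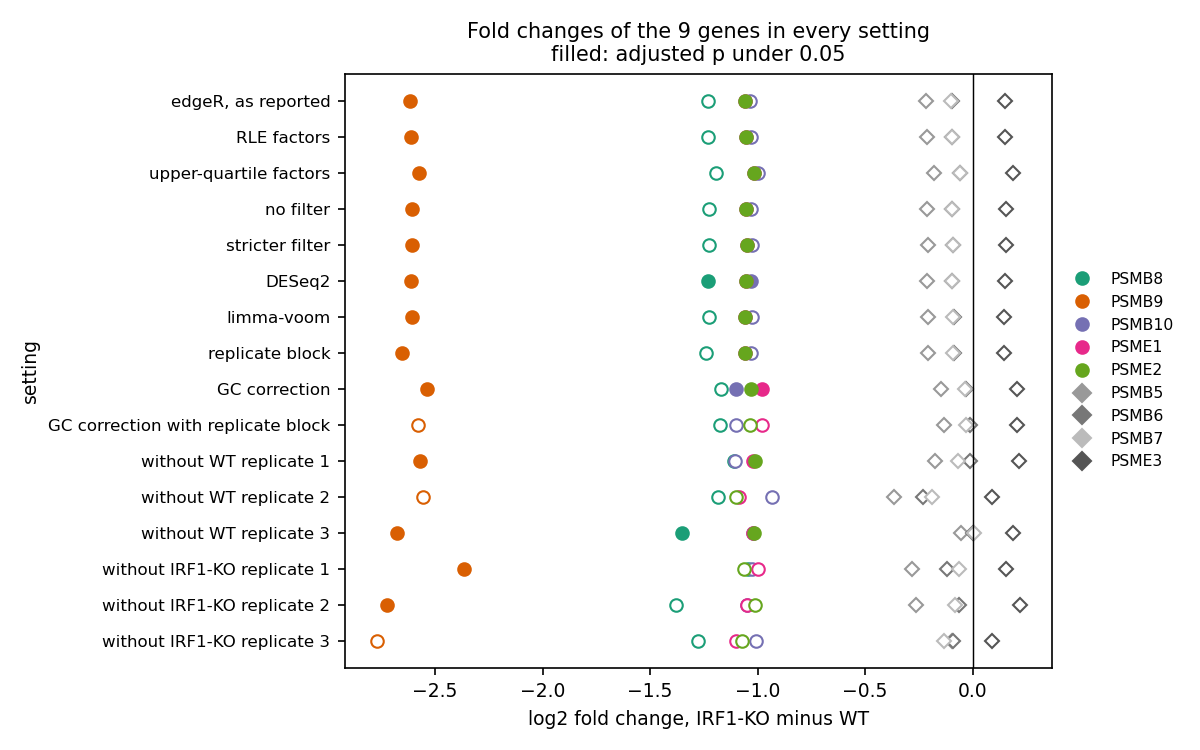
Log2 fold change (IRF1-KO minus WT) of each of the 9 genes in the reported fit and in 15 alternatives, 1 per line; circles are induced genes, diamonds are constitutive genes, and filled markers passed an adjusted p of 0.05. PSMB9 lies between −2.77 and −2.37 and the other induced genes between −1.38 and −0.93 in every line, while which circles are filled changes from line to line.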

How the data were processed

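The authors deposited raw counts per gene for the 6 libraries, with columns in the layout of featureCounts, per the file headers. The deposited exon length in bases, per the file headers, was used for values per kb. The submitters' processing notes name GRCh38, featureCounts (version 0.6.1) and edgeR (version 3.2.2). Which aligner, annotation and strand setting were used is not given in the sources used here. Symbols came from a table of gene names (19342 of 19402 identifiers) and GENCODE 29 (56 more).

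Counts were fitted in R 4.3.3 with edgeR 4.0.16 over all genes (filterByExpr, TMM, robust dispersion, quasi-likelihood F test, Benjamini-Hochberg over 13388 genes, threshold 0.05). The standard error is the one implied by the F statistic. The procedure was tested on simulated data, drawn with no GC trend and no effect shared by replicate numbers. That test does not show how the fits perform where such effects are present. As alternatives, scaling used RLE or upper-quartile factors, and genes were kept with no filter or with at least 5 CPM in 3 libraries; others were DESeq2 1.42.0, limma-voom (limma 3.58.1), the replicate number as a block, a correction for GC content (a natural spline with 5 degrees of freedom per library, as offset) with and without that block, and leaving out each library.

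Libraries of a group differed by more than sampling noise (chi-square per degree of freedom 25.8 to 55.0). The members, lists and tests were chosen with earlier results of these data known. Named were the 9 genes, IRF1, genes sharing exons with them, called genes or else the one with the smallest p in each list, and the 3 genes most alike; TAP1, IRF2 and NFE2L1 were added after their values were seen. A marker and a regulator on these lists are not reported here.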

Additional observations from a re-analysis of the deposited data

How the results depend on the processing

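The 5 induced genes kept a negative log2 fold change in all 15 alternatives, PSMB9 from −2.77 to −2.37, PSMB8 from −1.38 to −1.04, PSMB10 from −1.11 to −0.93, PSME1 from −1.10 to −0.98 and PSME2 from −1.10 to −1.01. The number of the 9 genes called lower, 3 as reported, was 5 with DESeq2 and 0 with the correction for GC content together with the replicate block, and ranged from 0 to 4 when each library was left out. With the replicate block alone it was 3, at an adjusted p of 0.0450 for PSMB9, PSME1 and PSME2 (edgeR quasi-likelihood). Deviations of same-numbered libraries correlated at −0.02, 0.25 and 0.06 across genes, and not every library correlated best with its own number. Deviations were taken from the mean of each group of 3, so these values cannot decide whether the numbers pair the pools. Other proteasome genes and regulators called numbered 0 as reported, 3 with DESeq2 (IRF1 and ADRM1 among them) and 0 to 1 when each library was left out. With each library left out, PSMB6 ranged from −0.23 to 0.000681, PSMB7 from −0.19 to 0.00527, BECN1 from −0.0286 to 0.118 and EMC9 from −0.0146 to 0.215; EMC9 was −0.0649 with the correction for GC content and −0.0594 with that and the block. Against PSME4 in place of PSME3, the log2 ratios of PSME1 and PSME2 differed by −1.05 each between groups. The causes were not tested. All 6 ratios kept a negative difference in each alternative. Leaving out a library could not turn these signs, because the groups did not overlap, and the replicate block leaves the difference unchanged. For the 5 induced genes, whose groups did not overlap either, a turned sign was also unlikely when a library was left out. Counts of the 9 genes were 73 or more in every library; how far depth or the number of pools limits these tests was not tested.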

Other observations

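Further ratios were chosen after the values of these genes were seen; values are counts per kb, in the order of replicates 1 to 3. The ratio of PSMB9 to PSMB8, neighbours in the MHC region, was 0.362, 0.407 and 0.442 across the WT pools and 0.130, 0.147 and 0.173 across the IRF1-KO pools. PSMB9 was thus lower by 2.70-fold beyond the difference of PSMB8, without overlap (exact permutation test, two-sided, p = 0.1, the smallest possible; 0.3 after Benjamini-Hochberg adjustment over 6 such ratios). PSMB9 against TAP1, with which it lies head to head by its RefSeq start, was 0.612, 0.526 and 0.448 in the WT pools. It was 0.179, 0.170 and 0.287 in the pools labelled IRF1-KO, also without overlap (exact permutation test, two-sided, p = 0.1, adjusted 0.3). TAP1 itself stood at 105, 128 and 122 CPM across the WT pools and 35.8, 68.0 and 42.2 CPM across the IRF1-KO pools.

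The ratio of PSME1 to PSME2 was 1.93, 2.00 and 1.95 in the WT pools, against 1.79, 2.06 and 2.03 in the pools labelled IRF1-KO, a difference of −0.000492 on the log2 scale (exact permutation test, two-sided, p = 1). PSMB10 to PSMB8, PSMB6 to PSMB5 and PSMB7 to PSMB5 overlapped between the groups, with log2 differences of 0.22, 0.12 and 0.11 (exact permutation test, two-sided, p = 0.6 each).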
